A study of Mus musculus with 8 samples.

Results

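Histone genes were followed in 3T3-L1 cells, mouse fibroblasts that can be induced to become adipocytes. Members were taken by name: every gene whose symbol starts with Hist1h to Hist4h, H1f, H2af or H3f3, which gave 80 of the 31252 genes in each deposited table. Of these, 64 are replication-dependent genes (Hist1 to Hist4) and 16 carry the name of a separately encoded variant (H1f, H2af or H3f3). The groups were cells with an empty shRNA vector (control), cells with an shRNA against Maf1 (shMaf1) or against Brf1 (shBrf1), and cells given ML-60218, which inhibits RNA polymerase III. The Maf1 protein represses that polymerase, whereas the Brf1 protein is part of TFIIIB, the factor that brings it to its genes. Each was sampled at day 0, confluent and not yet induced, and at day 2, after 2 days with insulin at 10 µg/mL, dexamethasone at 2 µM, IBMX at 0.5 mM and ascorbic acid at 25 µg/mL. The labels do not say how many shRNA sequences or clones were used, give no dose for ML-60218 and name no vector in the cells that received it. Every one of the 8 groups was 1 library, so no difference below has a replicate check and no test between conditions could be made.

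Histones are the proteins on which DNA is wound: H2A, H2B, H3 and H4 form the core of the nucleosome and H1 binds the linker between cores. Replication-dependent histone genes lie in clusters, are transcribed mainly during S phase, and give mRNAs that usually end just after a conserved stem-loop without a poly(A) tail. The stem-loop is bound by the protein of Slbp, and the mRNAs are degraded when DNA synthesis stops. Variant genes such as H3f3a and H2afz are made throughout the cell cycle as ordinary polyadenylated mRNAs, and some replication-dependent genes also give a tailed form, often in cells that leave the cycle. The libraries were made with an mRNA kit that selects poly(A) tails, so the values below are of tailed mRNA and say little of the untailed pool.

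Several sequences carry this distinction. They are shown for replication-dependent genes that together gave most of the counts of their class, and for the variant H2afx. Each is 26 bases from the GENCODE M21 transcript of the gene (build GRCm38), read 5′ to 3′, with the paired bases of the stem in capitals and the loop between them in lower case.
Hist1h1c: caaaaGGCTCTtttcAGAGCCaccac
Hist1h1d: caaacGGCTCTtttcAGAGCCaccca
Hist2h3c1: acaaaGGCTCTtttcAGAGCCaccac
Hist3h2a: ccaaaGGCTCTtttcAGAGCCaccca
Hist1h4i: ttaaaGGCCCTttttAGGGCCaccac
H2afx: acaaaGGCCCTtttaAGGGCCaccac
The stretches lie at chr13:23739507-23739532 for Hist1h1c, chr13:23555782-23555807 for Hist1h1d, chr3:96247322-96247347 for Hist2h3c1, chr11:58955167-58955192 for Hist3h2a, chr13:22040961-22040986 on the minus strand for Hist1h4i, and chr9:44335235-44335260 for H2afx. All are in the annotated 3′ untranslated region. A stem-loop of a 6-base stem and a 4-base loop was found in 42 of the 64 replication-dependent members, in 8 versions, of which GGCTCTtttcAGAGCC was in 22 genes. Among the 16 variants it was found in H2afx, the gene of the H2A.X protein that is phosphorylated at DNA breaks.

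In the genes shown, the annotated transcript does not stop at the stem-loop. It goes on for 840 bases in Hist1h1c, 4884 in Hist1h1d, 1162 in Hist2h3c1, 1643 in Hist3h2a, 330 in Hist1h4i and 822 in H2afx. Hist1h2bc and Hist1h2bq were matched to transcripts of 2 exons in which no stem-loop was found, with 745 and 826 bases after the coding part, stop codon included. The transcript used for Hist1h2bq is the one that carries its accession in the tables, which GENCODE names Hist1h2br.

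The 8 libraries held between 29035505 and 31759559 counts each, so that 1 count was worth 0.0289 to 0.0385 CPM (counts per 1000000 counts of the library, after TMM scaling). Maf1 stood at 13.1 and 12.0 CPM in the shMaf1 libraries of day 0 and day 2 and at 54.9 to 61.8 CPM in the other 6. Brf1 stood at 19.0 and 13.5 CPM in the shBrf1 libraries and at 25.3 to 33.2 CPM in the other 6. All 7 preadipocyte or fibroblast markers reached 1 CPM in every library, and none of the endothelial or epithelial markers did in any. Of the 3 macrophage markers in the tables, Cd68 reached 1 CPM in 3 libraries, at most 1.53 CPM, and Ptprc was at 0 in 6. The shBrf1 library of day 2 stood apart, with 7.8% of reads on ribosomal RNA against 0.46% to 0.93% in the others, and with the highest score for 3′ bias of coverage, 0.36 against 0.06 to 0.22.

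Most replication-dependent genes gave few counts or none in these poly(A)-selected libraries. Of the 64, 7 reached 5 CPM in at least 1 library, 11 reached between 1 and 5 CPM, 38 had counts but stayed under 1 CPM, and 8 had no count in any library. Of the 16 variants, 9 reached 5 CPM, H1fx reached 1.29 CPM, 3 stayed under 1 CPM (H1fnt, H1foo and H2afy3) and 3 had no count. The 11 of 1 to 5 CPM were Hist2h3c2, Hist1h2bk, Hist1h2ac, Hist2h2bb, Hist2h2be, Hist1h2be, Hist1h1e, Hist1h2bg, Hist1h1b, Hist2h2aa2 and Hist1h4h, from 4.09 CPM down to 1.27 CPM in their highest library, which was that of shBrf1 at day 2 for 10 of them. Hist1h1e, Hist1h1b and Hist1h4h reached 1 CPM in the shBrf1 library of day 2 alone, so the threshold fixed that it was their highest. A gene with no count could have stood at up to 0.0866 to 0.116 CPM, the value of 3 counts, without being seen in a given library. The summed level of all 64 replication-dependent genes was 77.6 CPM in control at day 0, against 1686 CPM for the 16 variants.

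A single linker histone gene made up most of the replication-dependent signal. Hist1h1c, which encodes linker histone H1.2, gave 24326 of the 40962 counts over the 8 libraries (59.4%), and with Hist1h2bc, Hist3h2a and Hist2h3c1 it gave 86.7%. Per kilobase of annotated transcript, the highest levels of the day 2 control library were 590 CPM per kb for H3f3b, 266 for H2afz, 232 for H1f0 and 202 for H3f3a. Hist1h1c followed at 104.0 CPM per kb, then H2afx at 49.2 and Hist1h2bc at 24.2. On this scale the length is that of GENCODE and not of the authors' own models.

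The 7 replication-dependent genes at 5 CPM or more all had long annotated 3′ ends. The annotated transcripts of 27 replication-dependent genes ran at least 100 bases past the stem-loop, or past the coding part where no stem-loop was found. These held all 7 genes at 5 CPM or more and 13 of the 18 at 1 CPM or more, and none was without a count. Of the 36 with a shorter end, none reached 5 CPM, 5 reached 1 CPM and 7 had no count; the remaining gene has no coding part and no count. The median of the highest CPM was 0.771 in the first set and 0.235 in the second, and per kilobase 0.930 and 0.498. A longer end also offers more places for a read to be counted, and an end may be annotated because the gene is expressed; the part of either was not tested.

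**Figure D1:**
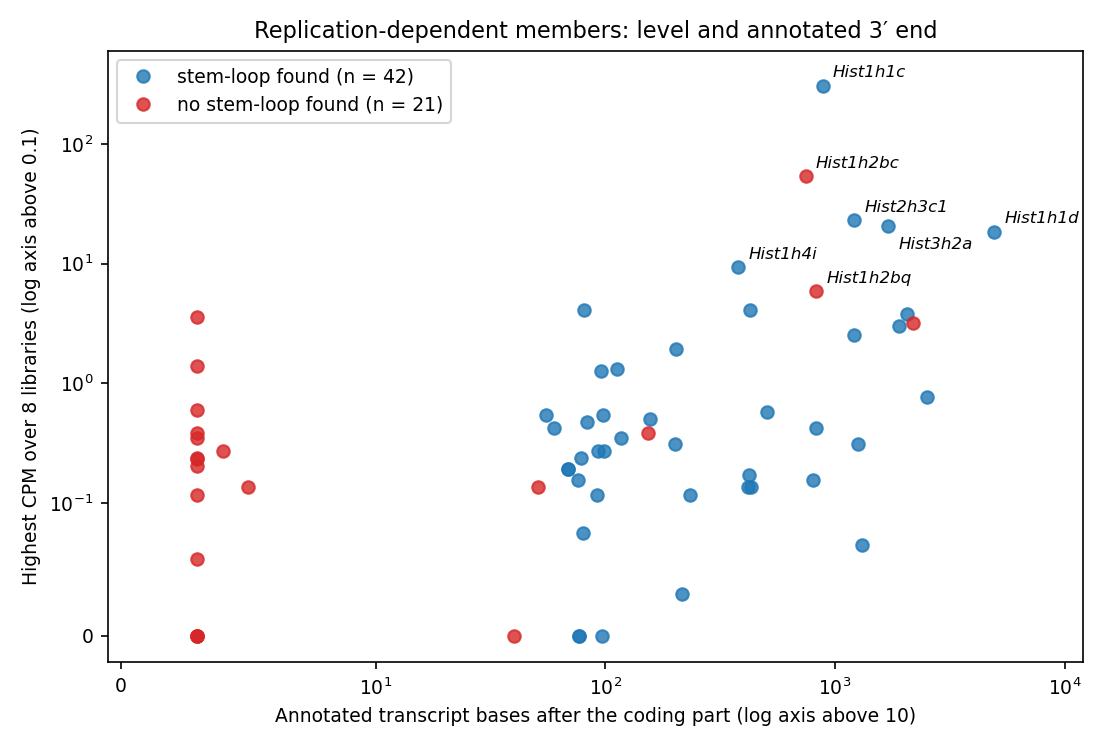
Highest CPM over the 8 libraries (vertical, log above 0.1) against annotated transcript bases after the coding part (horizontal, log above 10), one point per replication-dependent gene with a coding part, coloured by whether a stem-loop was found. All 7 genes at 5 CPM or more lie to the right of 100 bases, while many genes of similar length stay under 1 CPM.

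Reads of histone genes are hard to assign, since many paralogs share coding sequence. For each member, the share of 51-base windows of its transcript found in no transcript of another gene was counted, and it was under 50% in 31 of the 80. It was 91.6% for Hist1h1c, 97.8% for Hist1h1d, 71.3% for Hist1h4i, 69.6% for Hist1h2bc, 68.6% for Hist3h2a and 90.5% for H2afx. It was 0 for Hist2h3c1 and, on the transcript named Hist1h2br, 0.166% for Hist1h2bq, so their values may hold reads of near-identical copies and are uncertain. Hist2h3c1 gave 2828 counts over the 8 libraries while its paralog Hist2h3b gave none.

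Differentiation was compared first, day 2 against day 0 within each condition. The summed level of the replication-dependent mRNAs was higher at day 2 in all 4 conditions. Most of the genes called were of the Hist1 cluster, which holds 51 of the 64 replication-dependent genes. A gene is called higher or lower below when its log2 ratio of CPM, after adding 0.5 CPM, is at least 1 in size and the higher library holds at least 1 CPM. Intervals are exact 95% intervals of a fold difference and cover counting error only. In bulk RNA, more cells that express a gene and more mRNA per cell cannot be told apart. TMM scaling sets the typical gene near no difference. Scaled by the ERCC spike-in reads instead, the median log2 ratio of all genes at day 2 against day 0 was -0.62 in control, -0.31 in shMaf1, -1.19 in shBrf1 and -1.23 in ML-60218. On that scale the summed replication-dependent level was still higher at day 2, 2.03, 1.91, 1.65 and 1.22-fold in the same order, and the summed variant level was 1.03, 1.12, 0.787 and 0.729-fold.

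In control cells 9 replication-dependent genes and 3 variants were higher at day 2 and none was lower. Among all genes at 1 CPM or more, 9.0% were higher and 9.75% were lower. In shMaf1 cells 6 members were higher and none lower (4.95% and 5.57% of all genes). In shBrf1 cells 16 were higher and 1 was lower (14.7% and 17.3%), and in ML-60218 cells 10 were higher and 1 was lower (12.3% and 14.5%). Of the replication-dependent genes called higher, 8 of 9 in control, 5 of 5 in shMaf1, 12 of 14 in shBrf1 and 7 of 7 in ML-60218 were Hist1 genes. Hist1 genes are 51 of the 64, but a call also needs 1 CPM, which 15, 9, 18 and 13 of the 64 reached in that order. In control Hist2h3c1, Hist2h3c2, Hist2h2bb, Hist2h2be, Hist2h2aa2 and Hist3h2a reached it too, and of these only Hist2h2aa2 was called. A preference for the cluster was not tested. With spike-in scaling 8 members were higher in shBrf1 and 2 lower, and 3 were higher in ML-60218 and 6 lower. The median log2 ratio of all genes on that scale was -1.19 in shBrf1 and -1.23 in ML-60218. Most of the 80 members were too low to be called: 24 reached 1 CPM in either library in control, 19 in shMaf1, 27 in shBrf1 and 22 in ML-60218.

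Hist1h1c stood at 32.7 CPM in control, 25.9 in shMaf1, 57.1 in shBrf1 and, with ML-60218, 33.6 at day 0, and at 162, 89.5, 306 and 151 CPM at day 2. Every day 2 library was above every day 0 library. The fold difference was 4.96 in control (4.65 to 5.29), 3.46 in shMaf1 (3.19 to 3.74), 5.35 in shBrf1 (5.09 to 5.63) and 4.50 in ML-60218 (4.21 to 4.82).

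Hist1h2bc, an H2B gene of the same cluster, stood at 5.71 CPM in control, 3.24 in shMaf1, 10.7 in shBrf1 and, with ML-60218, 7.75 at day 0. At day 2 it stood at 28.0, 12.7, 53.9 and 29.2 CPM, again above every day 0 library. With spike-in scaling its level in shMaf1 at day 2 lay below that in shBrf1 at day 0. Its fold difference was 4.89 in control (4.19 to 5.74) and 3.91 in shMaf1 (3.14 to 4.91).

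Hist1h1d, the gene of linker histone H1.3, went from 0.548 CPM in control, 0.498 in shMaf1, 1.59 in shBrf1 and 0.479 in ML-60218 to 6.0, 2.72, 18.4 and 4.46 CPM. Its fold difference in control was 10.9 (6.81 to 18.6), on 19 counts at day 0 and 178 at day 2. Hist1h4i, an H4 gene, stood at 0.548, 0.467, 1.20 and 0.359 CPM at day 0 and at 4.99, 3.02, 9.29 and 3.85 CPM at day 2 in the same order, a fold difference of 9.10 in control (5.63 to 15.5). Hist1h2bq, an H2B gene with nearly no sequence of its own, stood at 0.519, 0.218, 0.903 and 0.539 CPM at day 0 and at 2.70, 1.05, 5.86 and 2.44 CPM at day 2. For all 3 genes every day 2 library was above every day 0 library, for Hist1h2bq by 1.05 CPM in shMaf1 at day 2 against 0.903 in shBrf1 at day 0. That step of Hist1h2bq rested on 31 and 30 counts, was within counting error and turned round with spike-in scaling.

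The sums of the Hist2 and Hist3 clusters differed far less. Summed over the 51 genes of the Hist1 cluster on chromosome 13, the level at day 2 was 5.02-fold that of day 0 in control (4.75 to 5.31), 3.55-fold in shMaf1, 5.47-fold in shBrf1 and 4.35-fold in ML-60218. Without Hist1h1c it was 5.22-fold in control (4.66 to 5.86). The 9 genes of the Hist2 cluster on chromosome 3 stood at 1.22-fold in control (1.08 to 1.38), 0.954-fold in shMaf1 (0.786 to 1.16), 1.37-fold in shBrf1 and 1.15-fold in ML-60218. The 3 genes of the Hist3 cluster on chromosome 11 stood at 0.842-fold in control (0.748 to 0.948) and at 0.865, 0.863 and 0.688-fold in shMaf1, shBrf1 and ML-60218. The intervals of the Hist1 cluster lay above those of the Hist2 and Hist3 clusters in every condition, while the single Hist4 gene had at most 20 counts.

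Single Hist2 genes did pass the size rule. Hist2h2aa2, an H2A gene, was called higher at day 2 in control, 9.12-fold (3.59 to 29.6) on 5 and 39 counts. In shBrf1 Hist2h3c2, an H3 gene, and Hist2h2bb, an H2B gene, were called higher, 3.09-fold (2.15 to 4.49) and 2.81-fold (1.93 to 4.14). With spike-in scaling the call of Hist2h2aa2 held, at a log2 ratio of 1.25, and the other 2 were not called, at 0.32 and 0.20.

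Hist2h3c1, an H3 gene, carried most of the Hist2 counts and stood at 9.98 CPM in control, 4.83 in shMaf1, 18.9 in shBrf1 and, with ML-60218, 10.4 at day 0. At day 2 it stood at 11.5, 3.64, 22.9 and 11.8 CPM, so that shMaf1 was lowest and shBrf1 highest on both days and the days overlapped. The 3 that were higher at day 2, control, shBrf1 and ML-60218, were lower there with spike-in scaling. Hist3h2a, an H2A gene, stood at 19.5, 17.4, 20.5 and 14.7 CPM at day 0 and at 16.5, 15.1, 17.7 and 10.1 CPM at day 2 in the order control, shMaf1, shBrf1, ML-60218. It was lower at day 2 in each condition, never past the size rule, with a log2 ratio of -0.24 in control and -0.52 in ML-60218. Hist2h2be, an H2B gene, stood at 2.71 CPM at day 0 and 2.02 CPM at day 2 in control, a fold of 0.746 (0.530 to 1.04) that is not resolved at this depth.

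**Figure D2:**
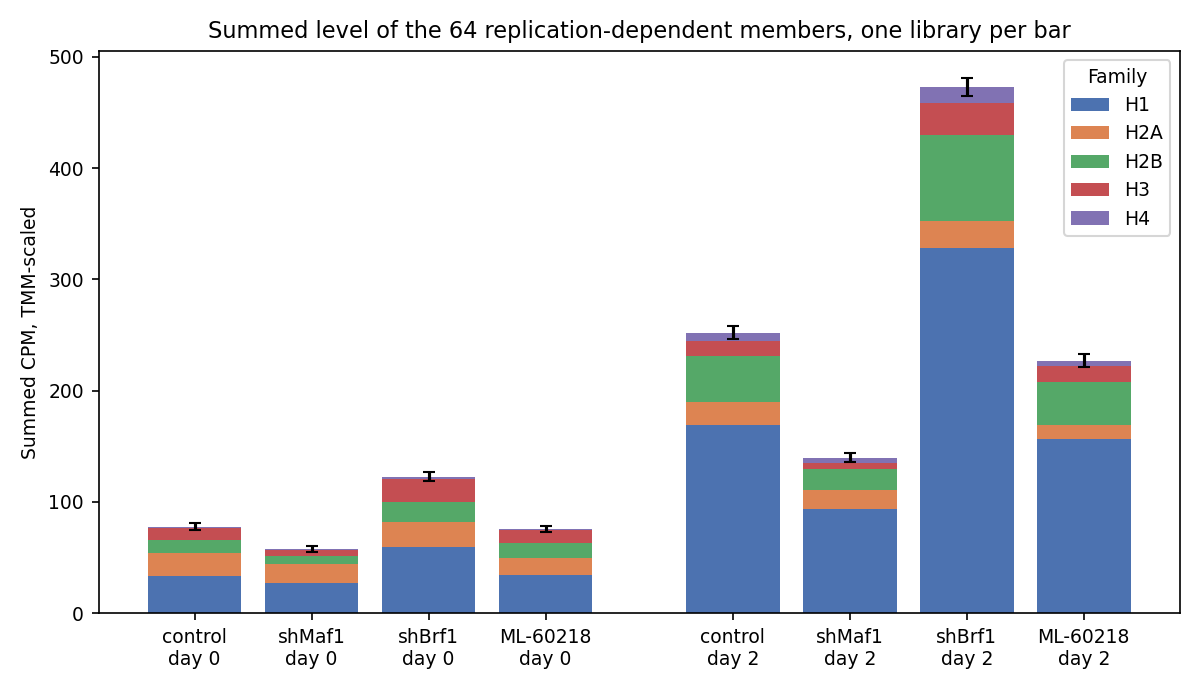
Summed CPM of the 64 replication-dependent genes in each library (vertical, from 0), stacked by histone family, with the exact 95% Poisson interval of the total (counting error only). Day 2 bars exceed the day 0 bar of the same condition, and on both days shBrf1 is highest and shMaf1 lowest, although with spike-in scaling ML-60218 is lowest at day 2.

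The rest of the replication-dependent set held little signal. The 46 genes that stayed under 1 CPM in every library had 21 counts together in control at day 0 and 123 at day 2, a 6.84-fold difference (4.29 to 11.5). The number of the 64 genes with any count was 29 to 31 at day 0 in the 4 conditions, and 44 in control, 49 in shMaf1 and 50 in shBrf1 at day 2. In ML-60218 at day 2 it was 30, as many as at day 0. There the 46 low genes summed to 1.53 CPM against 4.15 CPM in control, 0.368-fold (0.251 to 0.530), at library totals of 29207262 and 30791487 counts. Hist1h1c was 0.932-fold control there (0.893 to 0.972), so the intervals of the low genes and of the leading gene do not overlap. In shMaf1 at day 2 the 46 low genes stood at 1.06-fold control (0.819 to 1.36), in contrast to the leading genes below, and in shBrf1 at 2.21-fold (1.77 to 2.77).

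The knockdown of Maf1 addresses what loss of the polymerase III repressor does to differentiating cells. Replication-dependent histone mRNAs were lower than control in shMaf1 at both days, while the summed variants stood at 1.30-fold control at day 0 and 1.12-fold at day 2. The sum over the 64 genes was 57.9 CPM against 77.6 CPM at day 0, 0.745-fold (0.702 to 0.791), and 139.8 against 252 CPM at day 2, 0.555-fold (0.534 to 0.576). The difference lay in the genes with most counts: the 46 genes under 1 CPM stood at 1.85-fold control at day 0 (1.05 to 3.33), on 36 and 21 counts, and at 1.06-fold at day 2. With spike-in scaling the sum over the 64 genes was 0.658-fold control at day 0 and 0.620-fold at day 2. All comparisons with control on a day share that day's control library.

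At day 2, 7 members were lower in shMaf1 than in control and 1 was higher, H2afy2. The number lower was 2 with spike-in scaling (Hist2h3c1 and Hist1h2bk) or with a pseudocount of 1 CPM, and 3 with a floor of 5 CPM. Among all genes 3.48% were lower and 4.57% higher. All 7 were replication-dependent, and none of the 15 replication-dependent genes at 1 CPM or more had a log2 ratio above 0; their median was -0.85, against -0.00 over all genes. Hist1h2bk, Hist1h2ac, Hist2h2aa2, Hist2h3c2, Hist1h2be and Hist1h2bg reached 1 CPM in control alone, so they could only lie below it. Hist2h3c1 was 3.16-fold lower (2.54 to 3.97), Hist1h2bk 3.01-fold lower (1.96 to 4.75), Hist1h2bc 2.21-fold lower (1.95 to 2.50) and Hist1h1d 2.21-fold lower (1.69 to 2.91). Hist1h2ac and Hist1h2bq had log2 ratios of -1.06 and -1.04, and Hist2h2aa2, on 39 and 11 counts, one of -1.06. Hist1h1c, at a log2 ratio of -0.85, missed the size rule although its interval of 1.73 to 1.9-fold lower was narrow. Hist3h2a stood at 0.917-fold (0.804 to 1.04), a difference within counting error that is 0.03 on the log2 scale with spike-in scaling.

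At day 0, no replication-dependent gene passed the size rule, and 1 member was higher, H2afx (2.6% of all genes were higher and 1.02% lower). H2afx, at a log2 ratio of 1.02, was not called with spike-in scaling (0.85), library totals (0.97) or a pseudocount of 1 CPM (0.98), and spike-in scaling called Hist1h2bk, Hist2h2bb and Hist2h3c1 lower. Only 6 replication-dependent genes reached 1 CPM in either library, and all 6 stood below control, from Hist2h3c1 at a log2 ratio of -0.98 to Hist3h2a at -0.16. Hist2h2bb reached 1 CPM in control alone, so it could only lie below control. Hist2h2bb and Hist2h2be, both H2B genes of the Hist2 cluster, were 2.47-fold (1.41 to 4.51) and 2.03-fold (1.40 to 2.98) lower. The Hist2 cluster as a whole was 0.484-fold control at day 0 (0.413 to 0.566) and 0.379-fold at day 2 (0.321 to 0.446). The Hist1 cluster was 0.766-fold (0.707 to 0.829) and 0.542-fold (0.520 to 0.565).

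Brf1 knockdown, which lowers a factor that polymerase III needs, went with the opposite difference. The summed level was 122.6 CPM against 77.6 CPM in control at day 0, 1.58-fold (1.5 to 1.66), and 473 against 252 CPM at day 2, 1.88-fold (1.82 to 1.93). With spike-in scaling it was 1.44-fold and 1.17-fold. At day 2, 3 members were higher and none was lower, where 3.11% of all genes were higher and 5.5% lower; with spike-in scaling none of the 3 was called and H2afy2 was lower. Hist1h1d was 3.07-fold higher (2.58 to 3.67), Hist2h3c2 3.56-fold (2.4 to 5.41) and Hist1h1e, the gene of linker histone H1.4, 3.59-fold (2.17 to 6.18). Of the 18 replication-dependent genes at 1 CPM or more, 17 had a log2 ratio above 0, with a median of 0.87 against 0.01 over all genes, and Hist2h2aa2 was the exception; with spike-in scaling Hist1h2bk, Hist1h4h, Hist2h2be and Hist3h2a lay below 0 as well, where the median of all genes was -0.65. Hist1h1e, Hist1h1b and Hist1h4h reached 1 CPM in shBrf1 alone, so they could only lie above control with TMM scaling. Hist1h2bq, Hist2h3c1, Hist1h2bc and Hist1h1c had log2 ratios of 0.99, 0.96, 0.93 and 0.91, all just under the size rule. At day 0 no member was called either way (0.489% of all genes were higher and 0.497% lower), while 10 of 11 replication-dependent genes at 1 CPM or more lay above control with a median log2 ratio of 0.72. Hist1h1d, Hist1h2ac, Hist2h3c2, Hist1h4i and Hist1h2be reached 1 CPM at day 0 in shBrf1 alone, so they could only lie above control. Hist1h1d was the nearest to the rule, at a log2 ratio of 0.999 and a fold of 2.91 (1.69 to 5.20) on 53 and 19 counts.

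The part that ribosomal RNA and 3′ bias have in the shBrf1 values of day 2 was not tested. At day 0 the shBrf1 library had the same 3′ bias score as control, 0.07, and the same share of ribosomal RNA, 0.56%, and its summed replication-dependent level was 1.58-fold control. The adipocyte marker list also differed at day 2, from 154 CPM in shMaf1 to 438 in control, 1252 in ML-60218 and 1919 in shBrf1, and its part was not tested.

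With ML-60218 the summed replication-dependent level lay closer to control than with either shRNA, but Hist3h2a was lower on both days, at 0.752-fold (0.668 to 0.846) at day 0. With spike-in scaling the sum at day 2 was 0.590-fold control, below that of shMaf1. The summed level was 75.7 CPM against 77.6 CPM at day 0, 0.974-fold (0.922 to 1.03), and 227 against 252 CPM at day 2, 0.901-fold (0.870 to 0.932). No member was called higher or lower at day 0, where 0.041% of all genes were higher and 0.0738% lower, nor at day 2, where 1.77% were higher and 3.11% lower. With spike-in scaling the median log2 ratio of all genes at day 2 was -0.58. On that scale 6 members were lower at day 2: Hist1h2bk, Hist2h2aa2, Hist2h2bb, Hist3h2a, H2afj and H2afy2. At day 2 Hist3h2a was 1.63-fold lower (1.40 to 1.9), Hist1h2bk 1.94-fold lower (1.32 to 2.90) and Hist2h2bb 1.96-fold lower (1.23 to 3.18). Hist2h3c1 and Hist1h2bc stood at 1.03-fold (0.876 to 1.20) and 1.05-fold (0.946 to 1.15), both below control with library totals or spike-in scaling. Both treatments reduce polymerase III function by their described targets, and their summed levels at day 2 were 473 CPM with shBrf1 and 227 CPM with ML-60218.

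Each of the 7 replication-dependent genes at 5 CPM or more stood in the order shMaf1, control, shBrf1 from lowest to highest, at day 0 and at day 2. For Hist3h2a the step from control to shBrf1 was within counting error on both days and turned round with spike-in scaling, as did that from shMaf1 to control at day 2, and at day 0 those of Hist1h1d, Hist1h4i and Hist1h2bq between shMaf1 and control rested on 7 to 19 counts a library. Hist1h4i and Hist1h2bq reached 5 CPM in shBrf1 at day 2 alone, so their highest place in that library was fixed by the threshold. Of the 9 variants at 5 CPM or more, 1 had the order shMaf1, control, shBrf1 at day 0, 5 at day 2 and 1 at both days. At day 2 shBrf1 was the highest of the 4 conditions in 6 of the 9, so there the order was common among the variants as well.

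**Figure D3:**
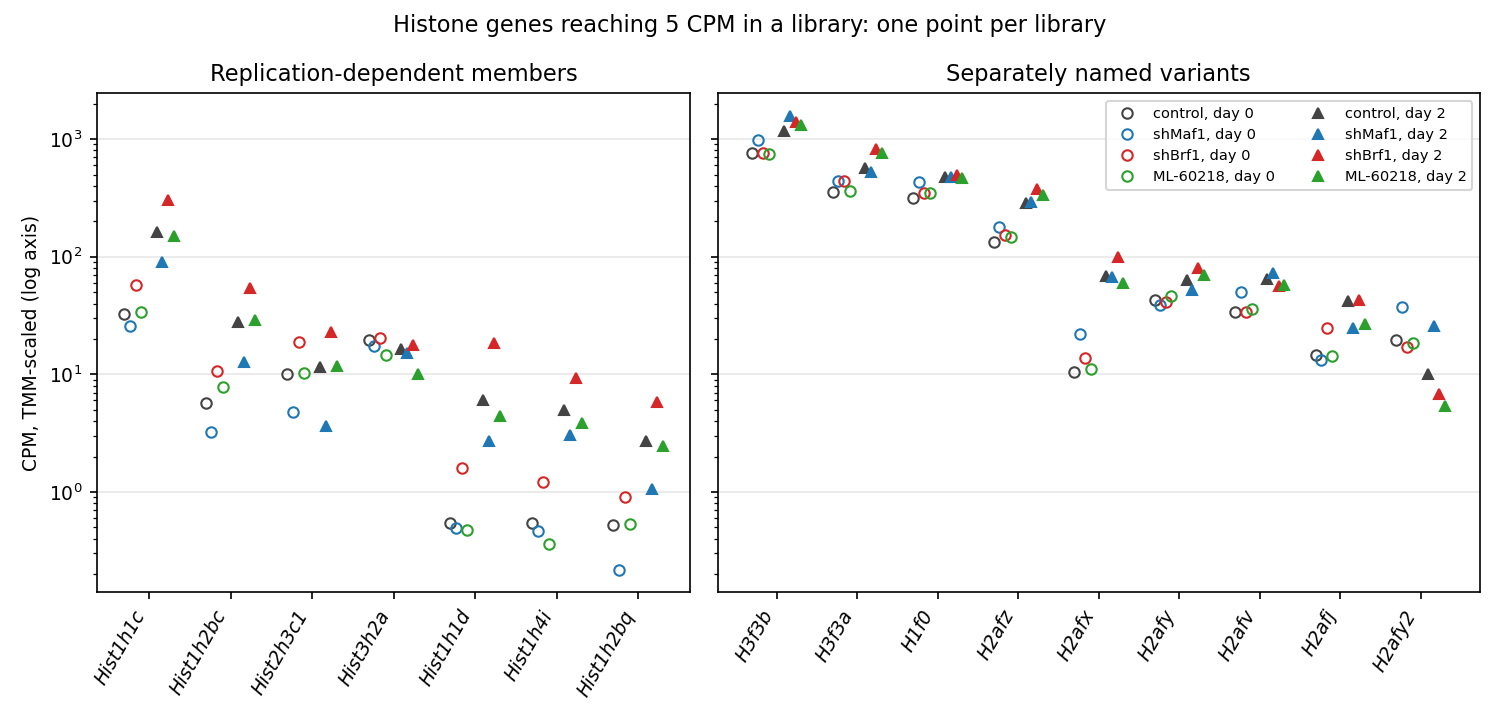
CPM (vertical, log axis) of the members reaching 5 CPM in a library, one point per library, open circles for day 0 and filled triangles for day 2, coloured by condition. The replication-dependent genes have shBrf1 highest and shMaf1 under control on both days, and the variants reach 1566 CPM, for H3f3b in shMaf1 at day 2 (TMM scaling). Hist1h4i and Hist1h2bq reach 5 CPM in shBrf1 at day 2 alone.

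The variants were ordered by the core particle they enter. H3.3, the replacement form of H3, is encoded by H3f3a and H3f3b. H3f3b stood at 758 CPM in control, 977 in shMaf1, 763 in shBrf1 and, with ML-60218, 752 at day 0, and at 1176, 1566, 1405 and 1323 CPM at day 2. H3f3a stood at 354, 441, 444 and 359 CPM at day 0 and at 573, 523, 831 and 757 CPM at day 2. Both were higher at day 2 in each condition with TMM scaling, and H3f3a in ML-60218 alone passed the size rule, at 2.11-fold (2.06 to 2.15); with spike-in scaling that ratio turned to a log2 value of -0.22, and on that scale H3f3a was higher at day 2 in control alone and H3f3b in shMaf1 alone. Together they held 1749 CPM in control at day 2, against 13.8 CPM for the 12 replication-dependent H3 genes.

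The H2A variants differed among themselves. H2afx went from 10.5 CPM in control, 21.8 in shMaf1, 13.9 in shBrf1 and, with ML-60218, 11.0 at day 0 to 68.1, 67.4, 100 and 59.9 CPM at day 2. It was the variant with the highest log2 ratio of day 2 against day 0 in each condition, from 1.60 in shMaf1 to 2.80 in shBrf1. At day 0 it was 2.07-fold higher in shMaf1 than in control (1.82 to 2.36), against the direction of the replication-dependent genes, and at day 2 it stood there at 0.989-fold (0.930 to 1.05), a difference within counting error.

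H2afz, the gene of H2A.Z, which marks promoters, stood at 133 to 180.1 CPM at day 0 and at 284 to 377 CPM at day 2. It was called higher at day 2 in control (2.14-fold, 2.06 to 2.22), shBrf1 and ML-60218, and stood at 1.62-fold in shMaf1 (1.57 to 1.68). With spike-in scaling none of these calls held, and the log2 ratio of H2afz in ML-60218 was -0.11. Its close relative H2afv stood at 33.6 to 50.6 CPM at day 0 and 56.5 to 73.3 CPM at day 2, highest in shMaf1 on both days, and with spike-in scaling it was lower at day 2 in shBrf1 and ML-60218.

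H2afj, a variant linked to senescence in human fibroblasts, stood at 14.7 CPM in control, 13.2 in shMaf1, 24.7 in shBrf1 and, with ML-60218, 14.4 at day 0. At day 2 it stood at 42.1, 24.8, 43.1 and 26.7 CPM, and its fold against control was 0.589 in shMaf1 (0.537 to 0.646) and 0.636 in ML-60218 (0.579 to 0.698). With spike-in scaling it was lower at day 2 than at day 0 in shBrf1 and ML-60218.

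The macroH2A genes differed in direction. H2afy, which encodes macroH2A1, stood at 38.5 to 46.3 CPM at day 0 and at 52.5 to 80.4 CPM at day 2, higher at day 2 in each condition with TMM scaling but, with spike-in scaling, in shMaf1 alone. H2afy2, which encodes macroH2A2, stood at 19.4 CPM in control, 37.0 in shMaf1, 17.2 in shBrf1 and, with ML-60218, 18.5 at day 0 and at 10.0, 25.9, 6.78 and 5.42 CPM at day 2. It was lower at day 2 in every condition, past the size rule in shBrf1 (2.53-fold, 2.13 to 3.02) and ML-60218 (3.41-fold, 2.83 to 4.12). At day 2 it was 2.58-fold higher in shMaf1 than in control (2.25 to 2.96), and at day 0 it was 1.91-fold higher (1.73 to 2.10).

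Among the linker variants, H1f0, which encodes the H1.0 of resting cells, stood at 318 to 430.3 CPM at day 0 and at 471 to 491 CPM at day 2, where the 4 conditions lay close together; with spike-in scaling it was lower at day 2 in each of them. At day 2 H1fx had 13 counts in control, 38 in shMaf1, 2 in shBrf1 and 6 with ML-60218. Its 2.94-fold in shMaf1 (1.53 to 6.02) missed the size rule with TMM scaling, at a log2 ratio of 0.93, and was called higher with spike-in scaling.

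**Figure D4:**
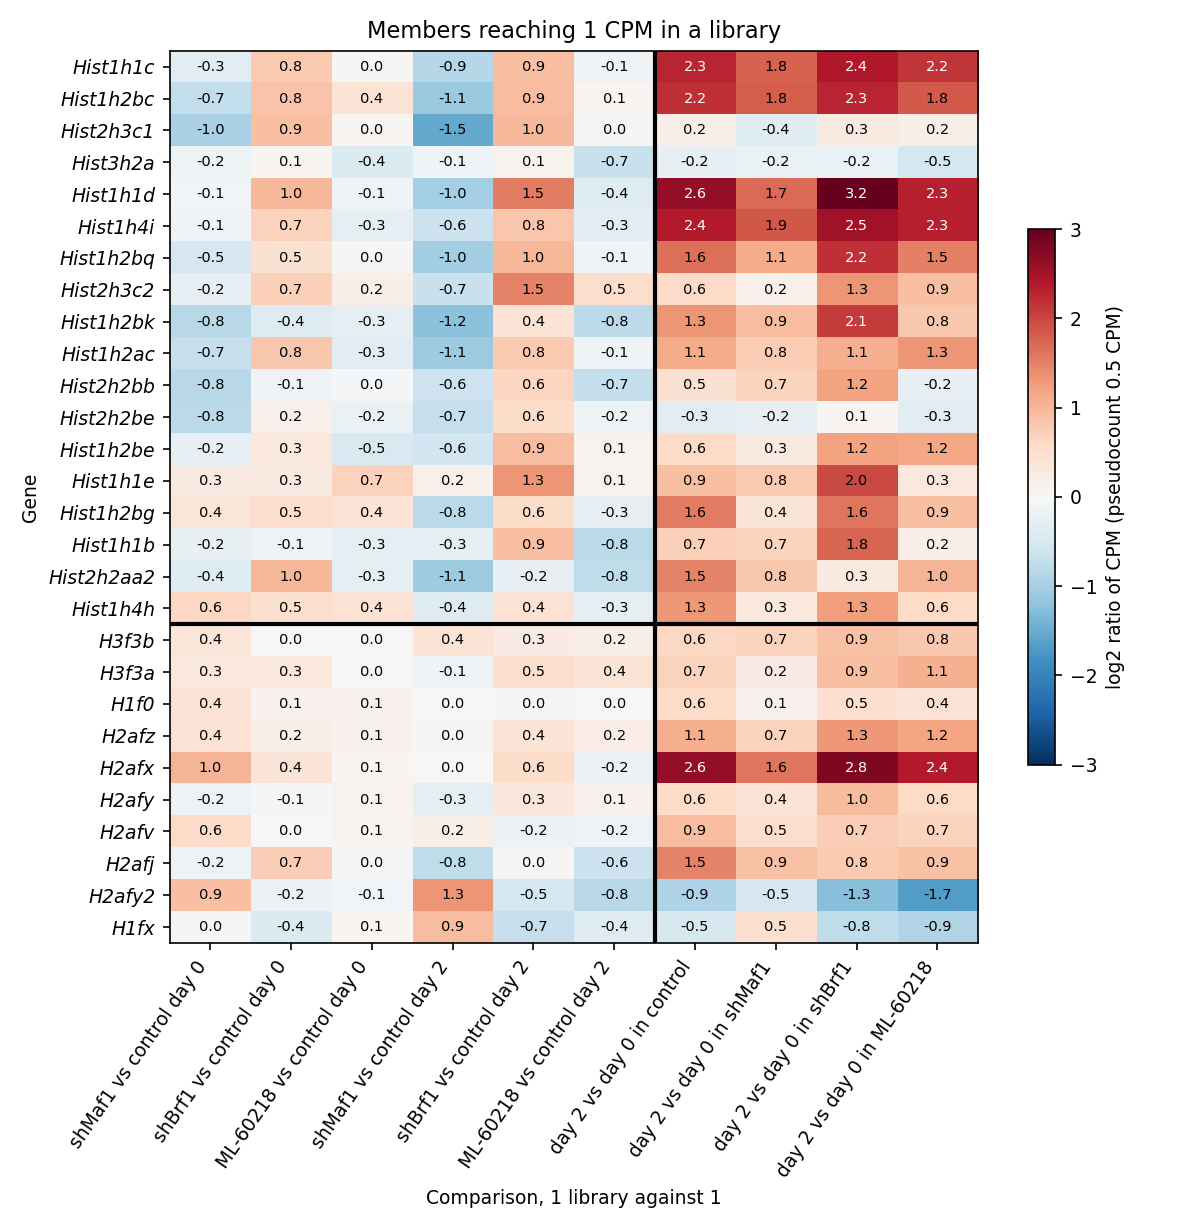
The log2 ratio of CPM (colour and number, pseudocount 0.5 CPM) for the 28 members reaching 1 CPM in a library (rows, replication-dependent genes above the line) in the 10 comparisons (columns, each 1 library against 1). The Hist1 genes are red in the 4 columns of day 2 against day 0, Hist3h2a and H2afy2 are blue there, and the replication-dependent rows are blue in the column of shMaf1 at day 2, but for Hist1h1e at 0.16, and red in that of shBrf1, but for Hist2h2aa2 at -0.24; all values are TMM-scaled.

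Genes that act with histones were counted from lists written with earlier results of these data known. The list of 28 S phase and DNA replication genes was higher at day 2 in 21 genes in control, 9 in shMaf1, 23 in shBrf1 and 18 in ML-60218, with none lower, and with medians of 1.36, 0.90, 1.62 and 1.32 log2, where the shares of all genes called higher were 9.0%, 4.95%, 14.7% and 12.3%. With spike-in scaling, applied to the lists after the results were seen, 7, 4, 8 and 4 were higher, 1 was lower in shBrf1 and 1 in ML-60218, and the medians were 0.70, 0.57, 0.41 and 0.06. Tk1, a thymidine kinase of S phase, had log2 ratios of 2.94, 2.13, 3.15 and 2.83 in that order.

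Against control, the S phase list and the replication-dependent histones parted in shMaf1. At day 0 all 28 S phase genes stood above control, 5 of them past the size rule, with a median log2 ratio of 0.79; Ccna2, the gene of cyclin A2, had 1.49 and Mcm5, a helicase subunit, 1.35. Among all genes 2.6% were called higher there. The 6 replication-dependent genes had a median of -0.77. At day 2, 25 of the 28 stood above control and none was called, with a median of 0.43 against -0.85 for the histones. In shBrf1 both were higher at day 2, with medians of 0.46 and 0.87. Ccne2 (cyclin E2) and Gins1 (a helicase subunit) were called higher, as were 3.11% of all genes. With spike-in scaling the S phase median turned to -0.22 there, with neither gene called, and stayed above 0 in shMaf1, at 0.63 at day 0 with 2 genes called and 0.59 at day 2. In ML-60218 at day 2 the medians were -0.00 and -0.16, and that of the S phase list was -0.60 with spike-in scaling.

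**Figure D5:**
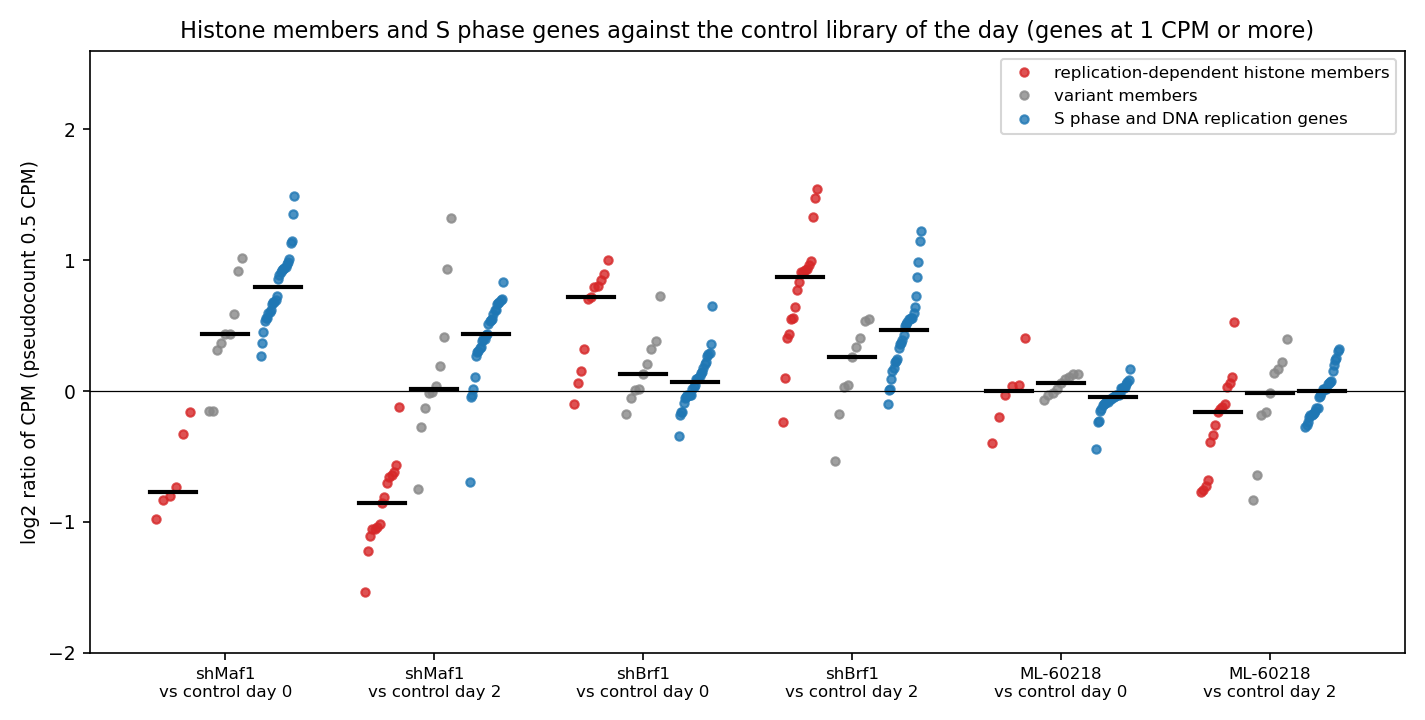
The log2 ratio of CPM relative to that day's control library (vertical) for replication-dependent members, variant members and S phase genes at 1 CPM or more in either library (one point per gene, bar at the median). In shMaf1 the replication-dependent points lie below 0 and most S phase points above it, while the variant points lie on both sides; in shBrf1 at day 2 the medians of the replication-dependent and S phase genes lie above 0, and in ML-60218 at day 0 all medians lie near 0. All values are TMM-scaled; with spike-in scaling the S phase median of shBrf1 at day 2 is -0.22.

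Genes that process histone mRNA differed less. Of the 20 listed, 19 were in the tables; none was called against control in any condition with TMM scaling, and at day 2 against day 0 only Lsm11, Slbp and Ncbp1 with shBrf1, and Lsm11 and Ncbp1 with ML-60218, were called higher. Among all genes, 14.7% with shBrf1 and 12.3% with ML-60218 were called higher at day 2. With spike-in scaling none of the list's higher calls held, their log2 ratios lying between -0.27 and 0.06. On that scale 8 and 10 of the list's 18 genes at 1 CPM were called lower. There the median of all genes was -1.19 and -1.23, so the typical gene passed the size rule as lower too. Against control at day 2 spike-in scaling called 4 genes lower with shBrf1 and 1 with ML-60218, where the medians of all genes were -0.65 and -0.58. Slbp, the stem-loop binding protein, stood at 52.1 CPM in control, 71.1 in shMaf1, 55.1 in shBrf1 and, with ML-60218, 51.4 at day 0 and at 82.7, 100.1, 128 and 99.0 CPM at day 2. Among 23 histone chaperone genes, Asf1b and Chaf1a, which deliver H3 and H4 to new DNA, were higher in shMaf1 at day 0, with log2 ratios of 1.24 and 1.06, of which the second was not called with spike-in scaling, at 0.89. Of all genes, 2.6% were called higher in that comparison. Srcap and Ep400, which encode ATPases that place H2A.Z, were lower in shBrf1 at day 2, with log2 ratios of -2.48 and -1.08. Of all genes 5.5% were lower there, and the part of that library's 3′ bias and ribosomal RNA was not tested. At day 2 against day 0 the chaperone genes called higher numbered 4 in control, 2 in shMaf1, 5 in shBrf1 and 4 in ML-60218. Among all genes 9.0%, 4.95%, 14.7% and 12.3% were higher. With spike-in scaling only the higher calls of Asf1b in control and shBrf1 held. Srcap was lower in shBrf1 (-2.51) and ML-60218 (-1.02), where 17.3% and 14.5% of all genes were lower, and both calls held with spike-in scaling. It was higher in shMaf1 (1.09), not called with spike-in scaling, at 0.77. Cenpa, the centromeric H3 outside the name rule, was higher in shMaf1 at day 0, with a log2 ratio of 1.40. It was also higher at day 2 than day 0 in control (1.96), shBrf1 (1.83) and ML-60218 (1.99). With spike-in scaling the last 2 were not called, at 0.63 and 0.72.

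Promoters were read from RefSeq (GRCm38.p6) for 58 of the 64 replication-dependent genes and 13 of the 16 variants, over the 250 bases before the start. The motif CCAAT, on either strand, was in 81.0% of the replication-dependent, 61.5% of the variant and 34.5% of all 27025 promoters. TATAAA was in 50%, 7.69% and 13.0%, and the octamer ATTTGCAT in 22.4%, 7.69% and 1.61%. AAACACA was in 5 of the 6 promoters of replication-dependent H1 genes and in 7.69% of the 52 others, against 6.22% of all. The 150 bases before the start of the 2 H1 genes with the highest levels are shown, with the matches to these motifs, on either strand, in capitals.
Hist1h1c: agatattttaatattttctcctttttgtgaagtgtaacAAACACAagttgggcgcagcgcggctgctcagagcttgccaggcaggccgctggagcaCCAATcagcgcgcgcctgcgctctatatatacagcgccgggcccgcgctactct
Hist1h1d: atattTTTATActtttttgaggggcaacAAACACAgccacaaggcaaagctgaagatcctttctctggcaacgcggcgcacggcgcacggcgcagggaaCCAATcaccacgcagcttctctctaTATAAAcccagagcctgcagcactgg
They lie at chr13:23738657-23738806 and chr13:23554882-23555031, on the plus strand. A match is a description of the letters and not of a bound site, and genes with the same matches had different levels: Hist1h1c and Hist1h1t each hold 1 CCAAT, 1 AAACACA and no TATAAA, and reached 306 CPM and 0.116 CPM in their highest library.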

How the data were processed

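The series holds 8 poly(A) RNA libraries of 3T3-L1 cells. Per the submitters' processing notes, reads were aligned with STAR 2.4 to the mouse build mm10; the tool that made the counts and its use of strand are not given in the sources used here. The authors deposited 6 tables, each setting 1 treated library beside that day's control, with expected counts (estimated counts) per gene as whole numbers, and a log2 fold change of their own. From the deposited quality sheets came the count of ERCC reads and of aligned reads, a score for 3′ bias, and, as percent, the ribosomal share and the ambiguous share (44.4% to 49.98%), named so per the file headers. Deposited p-values were not used, since 1 library per group gives no replicate.

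Counts of all 8 libraries were scaled together by TMM in edgeR 4.0.16 (R 4.3.3) and given as CPM. Log2 ratios used a pseudocount of 0.5 CPM, and a gene was called at a log2 ratio of 1 in size and 1 CPM in the higher library. Fold intervals are exact conditional binomial (Clopper-Pearson, 95%), intervals of summed CPM exact Poisson; both cover counting error only, since reads carry no molecular identifiers. Medians of a list are over genes at 1 CPM or more in either library, so a gene high in 1 library alone enters through that library. The ratio and interval code was tested on simulated data. Members reaching 5 CPM are given in all libraries, those of 1 to 5 CPM by name, the rest as counts; pathway genes are named by the size of their log2 ratio, Slbp by its role. Members and lists were chosen with earlier results of these data known.

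All 80 members were matched to GENCODE M21 transcripts by symbol or accession and position (build GRCm38, the assembly of mm10), and promoters came from RefSeq. The stem-loop search and the promoter motifs were chosen after the levels were known. Other settings tried were size factors of DESeq2 1.42.0, plain library totals, ERCC scaling, pseudocounts of 1 and 0.1 CPM, no floor, a floor of 5 CPM, and the authors' log2 fold change; the other scalings of the gene lists were chosen after seeing the data. Other computation used Python 3.11.15, numpy 2.4.6, pandas 2.3.3, scipy 1.17.1 and matplotlib 3.10.9.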

Additional observations from a re-analysis of the deposited data

How the results depend on the processing

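No paired analysis was possible because each group held 1 library, and for the same reason no replicate could be left out. Counts of members called higher or lower in the 10 comparisons were recomputed under the other settings. This gave 152 recomputed counts, of which 117 came within 1.5 times the reported count. Several reported counts were 0, and those that stayed 0 are among the 117, so this share says little of the larger counts. With ERCC scaling, the members higher at day 2 numbered 3 in ML-60218 and 8 in shBrf1, and those lower 6 in ML-60218, 1 in control and 2 in shBrf1. Against control, ERCC scaling gave 2 higher at day 0 and 0 higher with 1 lower at day 2 in shBrf1, 0 higher and 3 lower at day 0 and 2 higher and 2 lower at day 2 in shMaf1, and 6 lower at day 2 in ML-60218. It also turned H2afz and H3f3a at day 2 against day 0 in ML-60218 to log2 ratios of -0.11 and -0.22; the cause was not tested. A floor of 5 CPM, which leaves fewer genes to count, gave 6, 3, 7 and 5 higher at day 2 in control, shMaf1, shBrf1 and ML-60218, 3 lower in shMaf1 and 1 higher in shBrf1 against control at day 2; with no floor, 1 was higher in shBrf1 at day 0. A pseudocount of 0.1 CPM, which shrinks low genes less, gave 4 and 6 higher in shBrf1 at day 0 and day 2, 2 lower at day 0 and 2 higher at day 2 in shMaf1, and 1 lower in ML-60218 at day 2. A pseudocount of 1 CPM gave 0 higher at day 0 and 2 lower at day 2 in shMaf1. Library totals gave 0 higher and 1 lower in shMaf1 at day 0, and 1 lower at day 2 against day 0 in control. The authors' deposited log2 fold change gave 4 and 7 higher in shBrf1 at day 0 and day 2, 3 lower at day 0 and 2 higher at day 2 in shMaf1, and 1 lower in ML-60218 at day 2. DESeq2 size factors moved no count beyond 1.5 times. Of 273 recomputed ratios of called members at 5 CPM or more, 31 no longer passed the size rule and 2 changed sign, both named above. Genes under 1 CPM rest on about 30 counts or fewer a library, so single differences among them are not resolved at this depth.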
